A study of Mus musculus with 6 samples.

Results

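The nuclear lamina and envelope genes *Lmna*, *Lmnb1*, *Lmnb2*, *Lbr*, *Emd*, *Tmpo*, *Sun1*, *Sun2*, *Syne1* and *Syne2* were examined for nascent transcription in muscle stem cells. They were taken by their symbols from a PRO-seq table of 14546 genes, in which all 10 were found. PRO-seq locates engaged RNA polymerases, since nuclei extend their nascent RNA with biotin-labelled nucleotides and this RNA is then purified and sequenced. The libraries came from proliferating satellite cells (MuSCs) purified from mouse muscle and grown in culture, 3 of the group named Ctrl with the genotype Pax7CreERT/Suv4-20h1WT and 3 of the group named *Kmt5b* sKO with the genotype Pax7CreERT/Suv4-20h1KO. *Suv4-20h1* is another name of *Kmt5b*, the gene of a histone methyltransferase, which per the methods is floxed in the mutant and wild type in Ctrl, on a C57BL/6 background. Both groups carry the tamoxifen-inducible Cre recombinase driven by *Pax7*, a transcription factor gene of satellite cells, so the deletion was limited to cells with *Pax7* activity and their progeny. The labels do not state whether the libraries of a group came from separate animals, and the p-values measure the spread between these libraries.

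The nuclear lamina is a meshwork of lamin filaments under the inner nuclear membrane. The A-type lamins A and C are made from *Lmna* by splicing, and the B-type lamins B1 and B2 from *Lmnb1* and *Lmnb2*. Inner membrane proteins tie the lamina to chromatin, and SUN proteins bind nesprins of the outer membrane across the lumen to form the LINC complex, which connects the lamina with the cytoskeleton. In muscle, mutations of *LMNA* and of the emerin gene *EMD* are known causes of Emery-Dreifuss muscular dystrophy.

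For each gene the table holds 1 transcript, the isoform with the highest TSS signal, and 2 values per library. The TSS value is given in RPM (reads scaled to a fixed total per library) over the first 400 nt, where polymerases pause. The gene body value is given in TPM (also divided by length) over the rest of the transcript. Gene bodies of the 10 genes run from 2800 nt in *Emd* to 292182 nt in *Syne2*, against a median of 20786 nt for all genes tested. The coordinates of all 10 transcripts are present in the GENCODE annotation of the same build, GRCm38. *Lmna* lies on chromosome 3 (88481148 to 88503335, minus strand), *Lmnb1* on chromosome 18 (plus strand) and *Lmnb2* on chromosome 10 (80901203 to 80918245, minus strand). *Lbr* lies on chromosome 1 (181815335 to 181842379, minus strand), *Emd* on chromosome X (74254687 to 74257887, plus strand) and *Tmpo* on chromosome 10 (91147571 to 91171582, minus strand). *Sun1* lies on chromosome 5 (139200637 to 139249840, plus strand), *Sun2* on chromosome 15 (79724071 to 79742504, minus strand), *Syne1* on chromosome 10 (5021579 to 5069063, minus strand) and *Syne2* on chromosome 12 (75818318 to 76110900, plus strand). The listed *Syne1* transcript covers 8.95% of the annotated gene. It starts 482419 nt downstream of the gene's first base, so its gene body value may also count polymerases that started further upstream, which was not measured here. The listed *Emd* transcript covers 46.6% of its gene and that of *Tmpo* 71.2%. The other 7 cover between 74.4% and 100%.

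**Figure D1:**
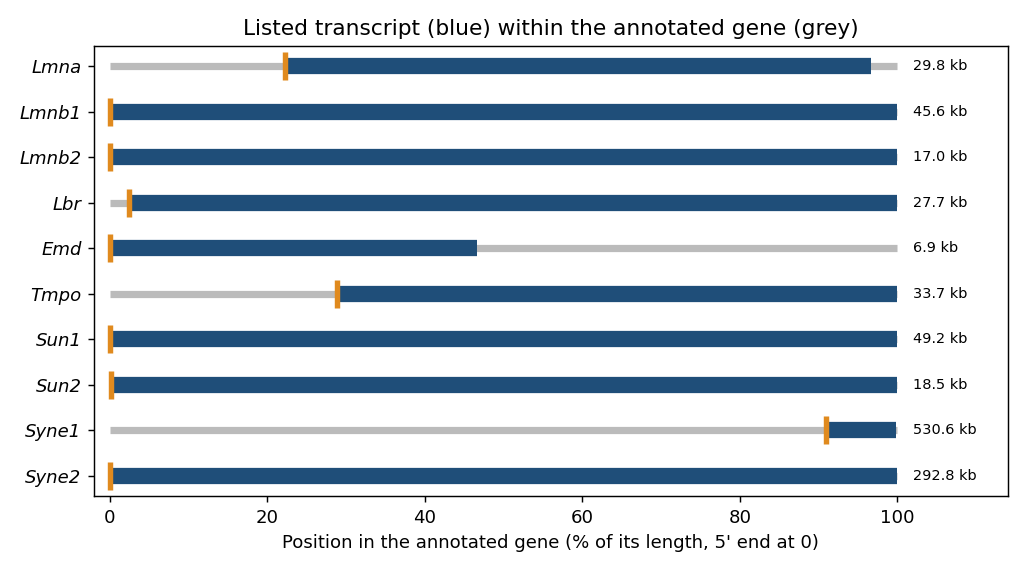
Position of the listed transcript (blue, its start in orange) within the annotated gene (grey), as a percentage of the gene's length with the 5′ end at 0 and the length at the right. The *Syne1* transcript occupies the last 8.95% of the gene, while those of *Lmnb1*, *Lmnb2* and *Sun1* span all of it.

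RefSeq start sites were found for 9 of the 10 genes, all but *Lmnb1*, within 37 nt of the listed start on GRCm38.p6. The windows of 300 nt (250 before to 50 after the start) were searched on both strands for the CCAAT box (CCAAT), the CHR element (TTTGAA), an E2F motif (GCGGGAA), the SP1 motif (GGGCGG) and the TATA motif (TATAAA). The 150 nt before the start are shown for the most transcribed gene and for *Lbr* and *Tmpo*. The gene body values of *Lbr* and *Tmpo* lay lower in every *Kmt5b* sKO library than in any Ctrl library, without passing the threshold of the main test below. The stretches of *Sun2*, whose window holds the same kinds of motif, and of the start within *Syne1* are shown as well. They run 5′ to 3′ on the strand of the gene, with matches in capitals.
Lmna: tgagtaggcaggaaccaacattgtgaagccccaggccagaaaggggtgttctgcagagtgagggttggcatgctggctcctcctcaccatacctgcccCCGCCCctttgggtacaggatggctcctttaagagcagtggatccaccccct
Lbr: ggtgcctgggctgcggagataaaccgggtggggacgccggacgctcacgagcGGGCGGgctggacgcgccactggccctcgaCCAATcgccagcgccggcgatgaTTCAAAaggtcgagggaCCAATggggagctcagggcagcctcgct
Tmpo: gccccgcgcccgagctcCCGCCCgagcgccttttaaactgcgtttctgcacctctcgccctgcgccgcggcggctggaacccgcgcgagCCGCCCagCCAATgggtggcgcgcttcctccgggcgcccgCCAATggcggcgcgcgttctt
Sun2: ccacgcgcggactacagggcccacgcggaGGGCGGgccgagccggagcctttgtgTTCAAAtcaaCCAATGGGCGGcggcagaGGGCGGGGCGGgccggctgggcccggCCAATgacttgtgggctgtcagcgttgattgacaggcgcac
Syne1: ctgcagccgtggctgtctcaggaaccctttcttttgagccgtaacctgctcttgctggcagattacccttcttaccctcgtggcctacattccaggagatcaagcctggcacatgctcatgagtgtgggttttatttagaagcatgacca
The stretches are chr3:88503353-88503502 for *Lmna*, chr1:181842402-181842551 for *Lbr*, chr10:91171620-91171769 for *Tmpo*, chr15:79742537-79742686 for *Sun2* and chr10:5069064-5069213 for *Syne1*, all on the minus strand. *Lbr* and *Tmpo* both hold 2 copies of CCAAT within 68 nt of the start, and *Lbr* holds 1 match to the CHR element between them. *Sun1* and *Sun2* also hold 2 copies of CCAAT, *Emd* holds 1, and *Lmna*, *Lmnb2*, *Syne1* and *Syne2* hold 0. CCAAT occurs in 37.4% of all 32817 promoter windows, TTTGAA in 17.9%, GCGGGAA in 4.60%, GGGCGG in 35.6% and TATAAA in 13.6%. In *Sun2*, 2 matches to GGGCGG overlap by their last and first base. GGGCGG was found in 8 of the 9 windows, all but that of *Syne1*, and GCGGGAA and TATAAA in 0 of 9. The GC content of the windows ran from 50.3% (*Syne1*) to 72.0% (*Lbr*), against a median of 52.7% over all promoters. *Lmna* and *Syne1* stood apart by their few CpG dinucleotides, with 1 and 4 in 300 nt, which is 0.0426 and 0.211 of the number their base composition would give. In the other 7 windows this ratio lay between 0.715 and 1.09.

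Over all listed genes a library held 926904 to 3246052 reads in TSS regions and 7425419 to 16249142 reads in gene bodies, as recovered from the steps between the deposited values. A single pair of groups was compared, as log2(value + 0.5), with limma and Benjamini-Hochberg adjustment over the 12451 autosomal genes that passed a mean of 0.5 in both regions, and genes were called at an adjusted p under 0.1. All 10 genes passed this filter. *Emd* is X-linked and was tested in a fit of 12877 genes that included X and Y. All values are relative to a library total, so a change in total transcription cannot appear in them, and in bulk libraries fewer cells of a type cannot be told apart from less nascent RNA per cell. Ctrl replicate 3 had the lowest median gene body value over all genes (3.89 on the log2 scale, against 3.99 to 4.10 in the other 5 libraries), and of the 10 genes all but *Lmna* had their lowest Ctrl gene body value there. All 7 satellite cell markers (*Pax7*, *Myf5*, *Myod1*, *Des*, *Vcam1*, *Itga7* and *Cdh15*) were listed, at a summed gene body level of 1532 to 2279 TPM in Ctrl, against 2023 to 2729 TPM in *Kmt5b* sKO, with 0 of 7 called by limma (1 of 7 at an unadjusted p under 0.05). Of the fibroblast markers 3 of 5 were listed (summed 4.25 to 8.95 TPM in Ctrl, against 4.80 to 7.75 TPM in *Kmt5b* sKO), of the endothelial markers 3 of 5 (2.50 to 4.23 and 4.38 to 5.05 TPM) and of the leukocyte markers 2 of 5, *Cd68* and *Itgam* (214.2 to 402.0 and 319.8 to 326.2 TPM, all but at most 0.65 TPM from *Cd68*). The Schwann cell list (4 of 4 listed) summed to 8.75 to 11.7 TPM in Ctrl, against 15.8 to 25.8 TPM in *Kmt5b* sKO, with *Sox10* higher in the gene body by limma (adjusted p = 0.0754). The part of these lists in the results below was not tested. *Kmt5b* itself held 30.6 to 38.5 TPM in Ctrl, against 35.0 to 42.6 TPM in *Kmt5b* sKO, which does not check the genotypes, as the values cover whole regions of the gene and not the deleted part.

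*Lmnb1* fell in *Kmt5b* sKO in the gene body and in the TSS region, and it was the only one of the 10 genes past the threshold in either region. In the gene body 1 of the 9 autosomal genes was lower at an adjusted p under 0.1, beside 1.38% of all genes tested. At the start it was again 1 of 9, beside 0.731%. None of the 9 was higher at this threshold, beside 1.61% in the gene body and 0.932% in the TSS region (over all genes 116 higher and 91 lower, and 95 and 123 after quantile normalization), and at an unadjusted p under 0.05 limma likewise gave 0 higher, with 3 lower in the gene body (6.46% of all genes) and 2 lower in the TSS region (3.65%). The median log2 fold change of the 9 genes was -0.25 in the gene body and -0.20 in the TSS region, where the medians of all genes were 0.02 and 0.08.

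**Figure D2:**
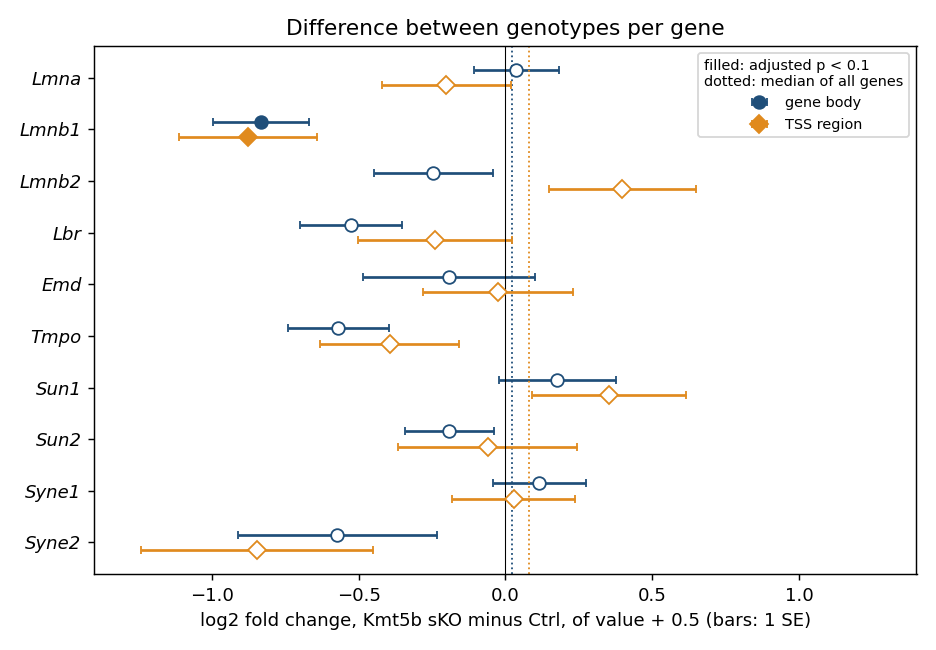
The log2 fold change (*Kmt5b* sKO minus Ctrl, of the value + 0.5) of each gene in the gene body (circles) and the TSS region (diamonds), with bars of 1 SE from limma, filled where the adjusted p was under 0.1. Only *Lmnb1* is filled, at -0.83 and -0.88, and the dotted lines mark the medians of all genes.

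Among the lamin genes, *Lmna* was transcribed most. Its gene body held 320.4, 330.6 and 329.9 TPM in Ctrl (replicates 1, 2 and 3, in this order throughout), against 349.2, 302.5 and 357.9 TPM in *Kmt5b* sKO, from at least 4317 reads per library. The groups overlapped, with both the lowest and the highest library in *Kmt5b* sKO. The log2 fold change was 0.04 ± 0.14 (SE; limma adjusted p = 0.942), and its mean level was above that of 99.2% of the genes tested. At the start of *Lmna* the values were 381.8, 332.7 and 294.9 RPM in Ctrl, against 284.9, 250.3 and 345.9 RPM in *Kmt5b* sKO. They overlapped as well (log2 fold change -0.20 ± 0.22, limma adjusted p = 0.829).

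*Lmnb1*, the gene of lamin B1, held 51.25, 50.1 and 36.9 TPM in the gene body in Ctrl, against 24.95, 27.9 and 23.6 TPM in *Kmt5b* sKO. Every *Kmt5b* sKO library lay below every Ctrl library. The mean was 46.1 ± 7.99 TPM in Ctrl and 25.5 ± 2.19 TPM in *Kmt5b* sKO (SD, n = 3), a log2 fold change of -0.83 ± 0.16 (limma adjusted p = 0.0751), or 56.2% of the Ctrl level. In the TSS region *Lmnb1* held 76.0, 55.2 and 79.6 RPM in Ctrl, against 33.8, 36.3 and 43.2 RPM in *Kmt5b* sKO. The groups were separate here too, and *Kmt5b* sKO stood at 54.5% of Ctrl (log2 fold change -0.88 ± 0.23, limma adjusted p = 0.0881). The pausing index below sets both regions of the gene against each other. Counts recovered from the values gave the same calls with edgeR (adjusted p = 0.0235 in the gene body and 0.0513 in the TSS region, where 2.84% and 1.2% of all genes were called lower). In the gene body the limma call remained only when Ctrl replicate 3 was left out (adjusted p = 0.0274) and was lost without any of the other 5 libraries, with adjusted p between 0.132 (without Ctrl replicate 2) and 0.244 (without *Kmt5b* sKO replicate 3). The fold change stayed between -0.98 and -0.75. Without Ctrl replicate 1 or any 1 *Kmt5b* sKO library, limma called 0 of all genes in the gene body. Without Ctrl replicate 2 it called 66 of all genes lower there. In the TSS region, with 1 library left out, the call remained only without Ctrl replicate 2 (adjusted p = 0.0426). It was also lost when the filter on low values was dropped (0.316) or the trend (0.292). In either of these settings limma called 0 of all genes in the TSS region.

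*Lmnb2*, the gene of lamin B2, held 96.0, 81.7 and 55.9 TPM in the gene body in Ctrl, against 66.71, 60 and 65.51 TPM in *Kmt5b* sKO. Ctrl replicate 3 was the lowest of all 6, and the groups overlapped (log2 fold change -0.25 ± 0.20, limma adjusted p = 0.642). The TSS region went the other way, with 32.9, 31.0 and 23.7 RPM in Ctrl, against 41.63, 33.68 and 40.02 RPM in *Kmt5b* sKO. There every *Kmt5b* sKO library lay above every Ctrl library, but the difference did not pass the test (log2 fold change 0.40 ± 0.25, limma adjusted p = 0.630). The B-type lamin genes thus differed in the sign of their TSS fold changes, a difference between genes that was not tested.

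The level of *Lmna* relative to *Lmnb1*, taken per length in the gene body, was 6.25, 6.60 and 8.95 in Ctrl, against 13.996, 10.9 and 15.2 in *Kmt5b* sKO. The ratio was higher in all *Kmt5b* sKO libraries than in any Ctrl library, by a factor of 1.84 between the means on the log2 scale. It was 5.02, 6.03 and 3.71 in Ctrl, against 8.44, 6.89 and 7.999 in *Kmt5b* sKO when taken from the TSS region. *Lmnb2* relative to *Lmnb1* was 1.87, 1.63 and 1.52 in Ctrl, against 2.67, 2.15 and 2.78 in *Kmt5b* sKO in the gene body. As *Lmnb1* is in each denominator, these ratios carry the same difference as above and were given no test.

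Of the inner membrane proteins, the lamin B receptor gene *Lbr*, whose product binds B-type lamins and heterochromatin, held 26.25, 24.7 and 17.75 TPM in the gene body in Ctrl, against 16.2, 16.1 and 14.4 TPM in *Kmt5b* sKO. The groups did not overlap, with Ctrl replicate 3 close to the *Kmt5b* sKO libraries. The log2 fold change of -0.52 ± 0.17 did not pass the threshold (limma adjusted p = 0.207). *Tmpo*, which encodes the LAP2 proteins, LEM domain proteins that bind lamins and chromatin, held 124.5, 94.7 and 85.2 TPM in Ctrl, against 60.1, 69.4 and 73.4 TPM in *Kmt5b* sKO. Its groups were separate too, and the log2 fold change was -0.57 ± 0.17 (limma adjusted p = 0.171). *Lmnb1*, *Lbr* and *Tmpo* were the genes whose gene body groups did not overlap, all lower in *Kmt5b* sKO, which is 3 of 10 beside 9.34% of all genes tested that were separate in this direction. Both *Lbr* and *Tmpo* passed the threshold with edgeR on the recovered reads (adjusted p = 0.0919 and 0.0870) and with DESeq2 (0.0247 and 0.0204), where 2.84% and 4.67% of all genes were called lower, and with limma when Ctrl replicate 3 was left out (0.0479 and 0.0868), where 4.06% were. The start regions of both are among those printed above.

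At the start, the separation did not hold for *Lbr*. Its TSS region held 48.9, 59.2 and 43.8 RPM in Ctrl, against 42.9, 59.4 and 29.9 RPM in *Kmt5b* sKO, with both the highest and the lowest library in *Kmt5b* sKO (log2 fold change -0.24 ± 0.26, limma adjusted p = 0.828). *Tmpo* held 207.95, 118.9 and 115.7 RPM in Ctrl, against 98.3, 114.9 and 111.3 RPM in *Kmt5b* sKO. Ctrl replicate 1 stood far above the rest, the other Ctrl libraries were barely above *Kmt5b* sKO, and the log2 fold change of -0.39 ± 0.24 (limma adjusted p = 0.607) shrank to -0.12 without that library. In the TSS region 3 of the 10 genes were separate and lower (*Lmnb1*, *Tmpo* and *Syne2*), beside 5.33% of all genes, and *Lmnb2* was separate and higher, beside 10.2%.

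*Emd*, the gene of emerin, a further LEM domain protein, has the shortest gene body and the fewest reads (43 to 133 per library). It held 32.5, 38.0 and 16.25 TPM in Ctrl, against 23.1, 23.45 and 24.7 TPM in *Kmt5b* sKO. The *Kmt5b* sKO libraries were close to each other and lay within the wide range of Ctrl (log2 fold change -0.19 ± 0.29, limma adjusted p = 0.820 with X and Y included). Without Ctrl replicate 3 the log2 fold change was -0.55 and passed the threshold (adjusted p = 0.0773, where 4.01% of the genes in this fit were called lower), and without Ctrl replicate 2 it was 0.05. Its TSS values of 29.3, 46.5 and 36.0 RPM in Ctrl, against 41.6, 36.3 and 30.8 RPM in *Kmt5b* sKO overlapped (log2 fold change -0.02 ± 0.25).

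**Figure D3:**
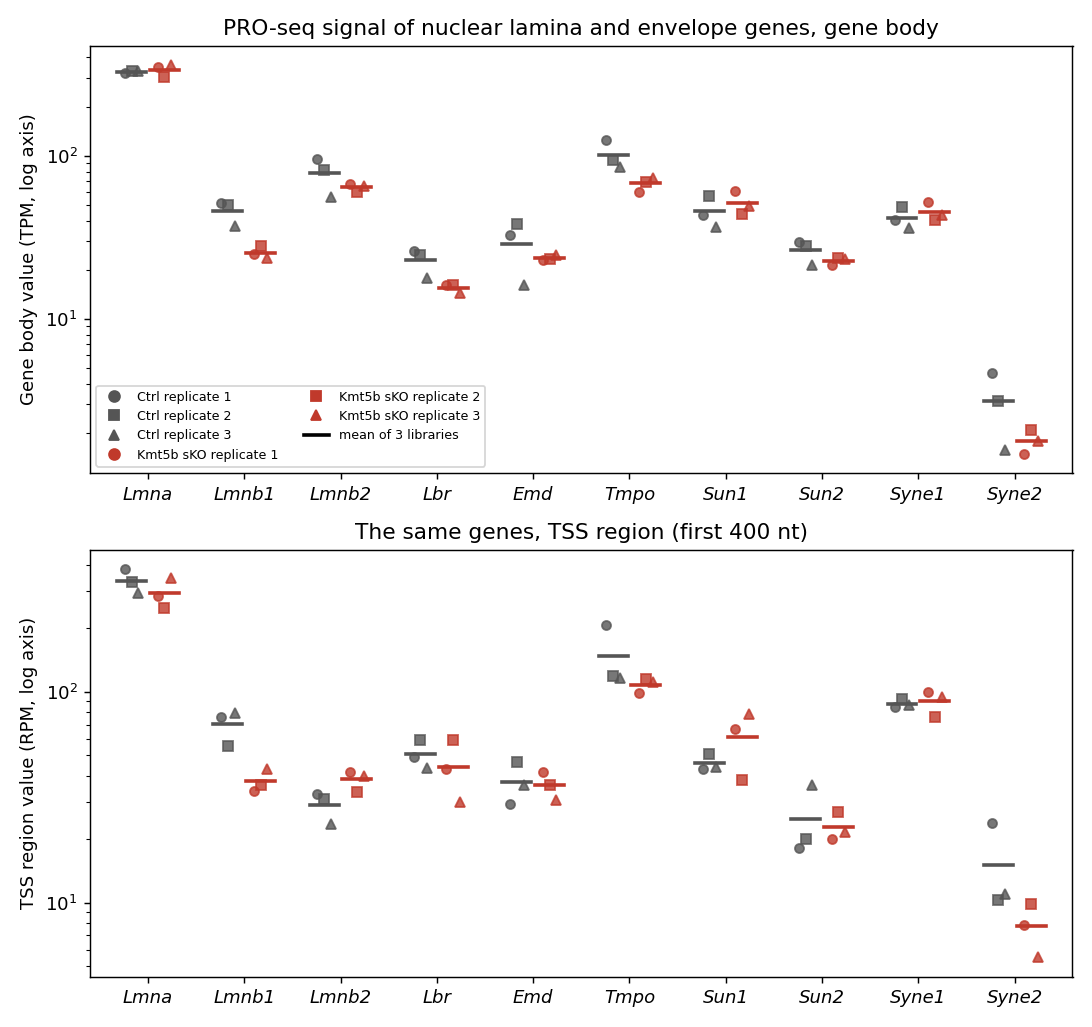
Gene body values (TPM, upper panel) and TSS values (RPM, lower panel) of the 10 genes on log axes, a point for each library, with symbols for replicates 1 to 3 and lines for the mean of 3 libraries. The *Kmt5b* sKO points of *Lmnb1* lie below all Ctrl points in both panels (at most 27.9 TPM and 43.2 RPM against at least 36.9 TPM and 55.2 RPM), and Ctrl replicate 3 (triangles) is the lowest Ctrl point in the upper panel for all genes but *Lmna*.

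The SUN domain genes encode the inner membrane component of the LINC complex. *Sun1* held 43.55, 56.7 and 36.7 TPM in the gene body in Ctrl, against 61.0, 43.9 and 49.1 TPM in *Kmt5b* sKO, and *Sun2* held 29.5, 28.0 and 21.5 TPM in Ctrl, against 21.45, 23.6 and 23.4 TPM in *Kmt5b* sKO. Both overlapped between the groups, with a log2 fold change of 0.18 ± 0.20 for *Sun1* and -0.19 ± 0.15 for *Sun2* (limma adjusted p = 0.744 and 0.628). At its start *Sun1* held 43.1, 50.6 and 44.1 RPM in Ctrl, against 66.9, 38.3 and 78.65 RPM in *Kmt5b* sKO. *Kmt5b* sKO replicates 1 and 3 were above all Ctrl libraries and replicate 2 below them (log2 fold change 0.35 ± 0.26, limma adjusted p = 0.706). *Sun2* held 18.2, 20.1 and 36.4 RPM in Ctrl, against 20.0, 27.1 and 21.6 RPM in *Kmt5b* sKO, with Ctrl replicate 3 above the rest (log2 fold change -0.06 ± 0.30).

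The nesprin genes encode the outer membrane component. The listed *Syne1* transcript held 40.4, 48.55 and 36.3 TPM in the gene body in Ctrl, against 51.8, 40.6 and 43.1 TPM in *Kmt5b* sKO, and 84.97, 92.5 and 86.2 RPM in Ctrl, against 100.3, 75.9 and 94.3 RPM in *Kmt5b* sKO in the TSS region. The groups overlapped in both regions (log2 fold changes 0.12 ± 0.16 and 0.03 ± 0.21, limma adjusted p = 0.801 and 0.981). *Syne2* had the lowest level of the 10 genes in the gene body, above only 9.55% of all genes tested, with 4.66, 3.15 and 1.57 TPM in Ctrl, against 1.5, 2.09 and 1.79 TPM in *Kmt5b* sKO. These overlapped through Ctrl replicate 3 (log2 fold change -0.57 ± 0.34, limma adjusted p = 0.487). In the TSS region *Syne2* held 24.0, 10.3 and 11.0 RPM in Ctrl, against 7.87, 9.91 and 5.52 RPM in *Kmt5b* sKO, from 12 to 99 reads per library. All *Kmt5b* sKO libraries were lower than all Ctrl libraries, and the log2 fold change of -0.85 ± 0.40 did not pass the threshold (limma adjusted p = 0.436).

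By mean gene body level in Ctrl, which is per length, the order was *Lmna* (327.0 TPM), *Tmpo* (101.5), *Lmnb2* (77.85), *Lmnb1* (46.1), *Sun1* (45.6), *Syne1* (41.7), *Emd* (28.9), *Sun2* (26.3), *Lbr* (22.9) and *Syne2* (3.13). Only 3 neighbours in this order had Ctrl ranges that did not overlap, *Lmna* over *Tmpo* by 3.22 times, *Lmnb2* over *Lmnb1* by 1.69 times and *Lbr* over *Syne2* by 7.33 times. In these pairs the first gene was higher in all 6 libraries. The remaining neighbours did not differ beyond the spread of the Ctrl libraries, although *Sun1* exceeded *Syne1*, *Syne1* exceeded *Emd* and *Sun2* exceeded *Lbr* in 6 of 6 libraries each. Among the TSS values, *Syne1* ranked above *Lmnb1* in 6 of 6 libraries, with Ctrl means of 87.9 and 70.2 RPM.

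The pausing index, the TSS value divided by the gene body value, compares polymerase at the start with polymerase along the gene. In Ctrl its mean ran from 0.382 in *Lmnb2* to 5.14 in *Syne2*, and in 6 of 6 libraries *Lmnb2* was lowest and *Syne2* was above *Lbr*, the next in the order at 2.24. None of the 9 autosomal genes passed the threshold with limma, and 0 of 9 had an unadjusted p under 0.05, beside 0.0% of all 11698 genes at the threshold and 3.86% at the unadjusted p. No other tool was run for this ratio. *Lmnb2* had 0.343, 0.380 and 0.424 in Ctrl, against 0.624, 0.561 and 0.611 in *Kmt5b* sKO. It was the only one of the 10 genes with separate groups, beside 5.93% of all genes that were separate and higher, and its log2 fold change was 0.65 ± 0.29 (limma adjusted p = 0.9997). For *Lmnb1*, with 1.48, 1.10 and 2.16 in Ctrl, against 1.353, 1.304 and 1.835 in *Kmt5b* sKO, the groups overlapped fully (log2 fold change -0.04 ± 0.31). *Lbr* had 1.86, 2.39 and 2.47 in Ctrl, against 2.66, 3.69 and 2.07 in *Kmt5b* sKO (log2 fold change 0.30 ± 0.28). *Tmpo* had 1.67, 1.26 and 1.36 in Ctrl, against 1.64, 1.66 and 1.52 in *Kmt5b* sKO (log2 fold change 0.18 ± 0.23). The log2 fold changes of *Lmna*, *Emd*, *Sun1*, *Sun2*, *Syne1* and *Syne2* lay between -0.24 and 0.18, and their groups overlapped.

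**Figure D4:**
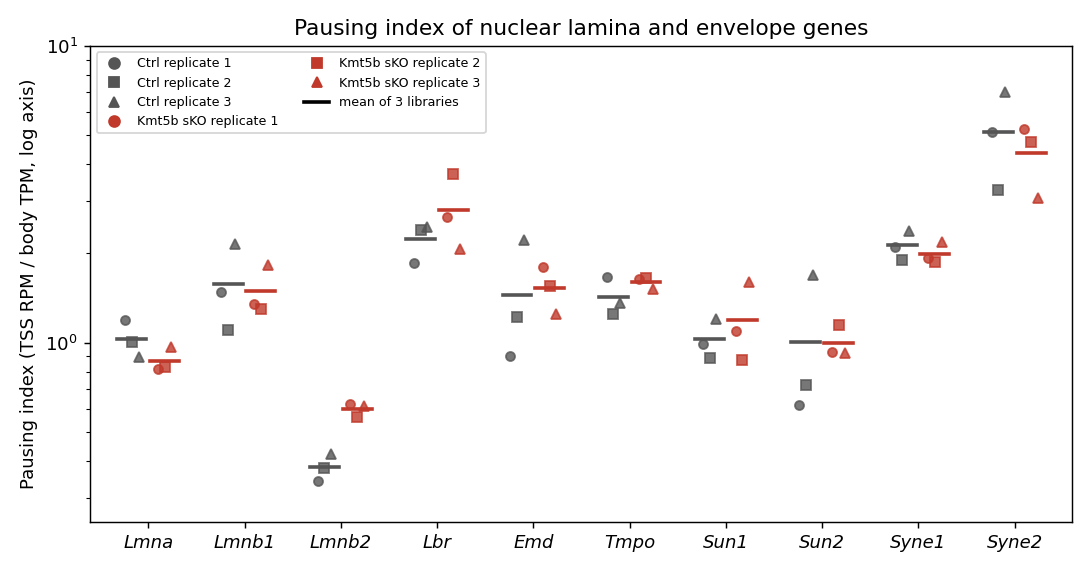
Pausing index (TSS RPM over gene body TPM, log axis) of the 10 genes, a point for each library and a line for the mean of 3 libraries. The groups are separate only for *Lmnb2*, with 0.343 to 0.424 in Ctrl, against 0.561 to 0.624 in *Kmt5b* sKO.

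Further envelope genes were described by lists, of which 60 of 62 genes were tested. In the gene body 0 rose and 1 fell (beside 1.61% and 1.38% of all genes tested), and in the TSS region 1 rose and 0 fell (beside 0.932% and 0.731%), counts near those shares. The median log2 fold changes were -0.08 and 0.00. The number called in the gene body was 7 with edgeR (1 up, 6 down), 9 with DESeq2 (3 up, 6 down), 7 with limma without Ctrl replicate 3 (1 up, 6 down) and 0 without any other single library. Of all 12451 genes, edgeR called 395 up and 353 down (2.84% down) and DESeq2 713 up and 582 down (4.67% down). Limma without Ctrl replicate 3 called 330 up and 506 down (4.06% down). Without Ctrl replicate 2 it called 195 up and 66 down, and without Ctrl replicate 1 or any 1 *Kmt5b* sKO library 0 of all genes. Of the 6 genes for LEM domain proteins, the chromatin linker BAF (*Banf1*) and its kinase (*Vrk1*), 0 were called by limma. At an unadjusted p under 0.05, 2 were lower in the gene body (beside 6.46% of all genes) and 1 in the TSS region (beside 3.65%). The smallest p in the gene body belonged to *Ankle1*, a LEM domain nuclease gene, with 35.6, 32.9 and 15.8 TPM in Ctrl, against 10.04, 9.61 and 12.6 TPM in *Kmt5b* sKO (log2 fold change -1.27 ± 0.30, limma adjusted p = 0.107). *Vrk1* followed with -0.60 ± 0.20 (adjusted p = 0.199).

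Of the 10 genes for other nesprins, torsins and LINC partners, 0 were called. In the gene body 6 were higher and 4 lower, where 46.2% of all genes were lower. There 1 was higher at an unadjusted p under 0.05, which 1981 of all 12451 genes had in either direction. The torsin gene *Tor1b* had a log2 fold change of 0.56 ± 0.23 (limma adjusted p = 0.301) and *Nrm*, the gene of the inner membrane protein nurim, one of -0.57 ± 0.27 (adjusted p = 0.372). The 5 prelamin processing genes held 0 calls and 0 at an unadjusted p under 0.05. There *Icmt*, which methylates the farnesylated end of lamins, had -0.21 ± 0.19, and *Fnta*, a subunit of the farnesyltransferase, 0.11 ± 0.13. The 7 genes of the ESCRT machinery that seals the envelope after mitosis likewise held 0 calls and 0 at an unadjusted p under 0.05, with *Ist1* at 0.23 ± 0.15 and *Chmp4b* at 0.19 ± 0.15.

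Envelope and membrane proteins prominent in muscle were described by 4 genes (*Tmem38a*, *Plpp7*, *Popdc2* and *Wfs1*). Their median log2 fold change was 0.74 in the gene body and 0.75 in the TSS region. All 4 were higher in both, where 46.2% and 41.8% of all genes were lower. At an unadjusted p under 0.05 by limma, 3 of the 4 were higher in each region. Such a p, in either direction, was found for 1981 gene bodies and 1369 TSS regions of all 12451 genes. Of the 4 genes only *Popdc2*, which encodes a cAMP-binding membrane protein, was called, for its TSS values (beside 0.932% of all genes called higher there). These rose from 12.6, 6.32 and 10.8 RPM in Ctrl to 26.2, 21.8 and 26.7 RPM in *Kmt5b* sKO (log2 fold change 1.33 ± 0.33, limma adjusted p = 0.0695). In the gene body its groups were separate as well, without passing the threshold (0.85 ± 0.20, adjusted p = 0.107).

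Of the 30 nuclear pore genes, 28 were tested and 22 were lower in the gene body, with a median log2 fold change of -0.24, while 46.2% of all genes were lower. *Nup155*, a component of the inner ring of the pore, fell from 21.15, 18.2 and 20.0 TPM in Ctrl to 12.8, 13.7 and 12.7 TPM in *Kmt5b* sKO (log2 fold change -0.58 ± 0.13, limma adjusted p = 0.0911). It was the only pore gene called, 1 of 28 beside the 1.38% of all genes, and 6 of 28 were lower at an unadjusted p under 0.05 beside 6.46%. Among the TSS values 0 of 28 were called, with 0 at an unadjusted p under 0.05.

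Some genes of the mitosis and myogenic differentiation lists also passed the threshold, and their values are given beside these results. Of 20 mitosis genes 11 fell in the gene body (beside 1.38% of all genes tested) and 4 in the TSS region (beside 0.731%), and the median log2 fold change of the 20 was -1.04 in the gene body, with a negative sign for each. The largest falls were those of the checkpoint kinase gene *Bub1* (-1.44 ± 0.17, limma adjusted p = 0.0609) and of the cyclin A2 gene *Ccna2* (-1.31 ± 0.20, adjusted p = 0.0610). The summed gene body level of the list was 885.4, 771.7 and 555.4 TPM in Ctrl, against 384.5, 383.0 and 422.1 TPM in *Kmt5b* sKO. *Lmnb1*, *Lmnb2*, *Lbr*, *Tmpo*, *Sun2* and *Syne2* had the same order of the Ctrl libraries in the gene body, with replicate 1 highest and replicate 3 lowest. The share of all genes with this Ctrl order was not counted. Among the *Kmt5b* sKO libraries the mitosis list was highest in replicate 3, as was *Tmpo*. *Lmnb1* and *Lbr* were lowest in that library, and *Lmnb2*, *Sun2* and *Syne2* were highest in another. The part of this list's difference in the result for *Lmnb1* was not tested.

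Of 23 myogenic differentiation genes 4 rose in the gene body (beside 1.61% of all genes) and 7 in the TSS region (beside 0.932%), and the median log2 fold change of the 23 was 0.89 in the gene body, with a positive sign for each. Among the genes called in the gene body, the largest rises were those of the troponin C gene *Tnnc1* (1.27 ± 0.25, limma adjusted p = 0.0751) and the myosin light chain gene *Myl1* (1.10 ± 0.23, adjusted p = 0.0798). A further troponin C gene, *Tnnc2*, was called in the TSS region (1.92 ± 0.38, limma adjusted p = 0.0385). It rose more in the gene body, without passing the threshold there (1.44 ± 0.34, adjusted p = 0.107). The summed gene body level of the list was 3375 to 6670 TPM in Ctrl, lowest in replicate 3, and 7361 to 10694 TPM in *Kmt5b* sKO. Markers of mature fibres were listed for 6 of 6 genes, with a summed level of 109.7 to 298.1 TPM in Ctrl, against 273.7 to 588.5 TPM in *Kmt5b* sKO. Only 3 of these 6 passed the filter and were tested by limma. In the gene body 0 of the 3 were called and 2 had an unadjusted p under 0.05, both higher. Over all 12451 genes, 1981 had such a p in either direction. *Ckm* and *Myh1* are in both lists. With the replicate block, and in the gene body also without Ctrl replicate 1 or any 1 *Kmt5b* sKO library, limma called 0 of all genes, these lists included (1374 to 1706 of all genes had an unadjusted p under 0.05 in the gene body). The part of these lists in the results for the envelope genes was not tested.

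**Figure D5:**
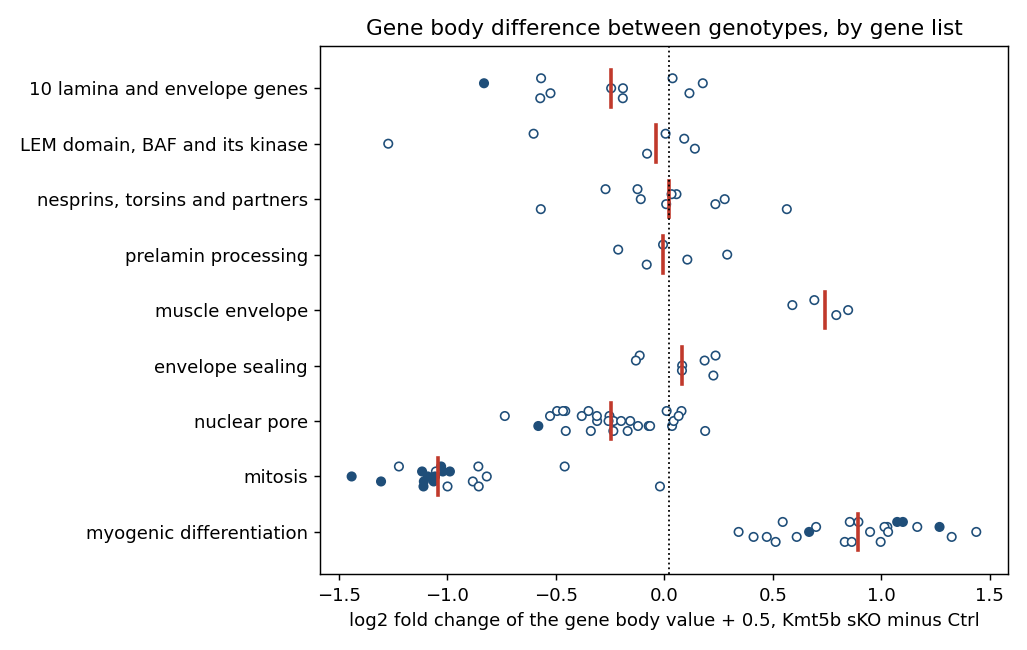
Gene body log2 fold change (*Kmt5b* sKO minus Ctrl) of each tested gene by list, filled where the limma adjusted p was under 0.1, with the median of a list in red and the median of all genes as a dotted line. The red line of the first row is the median of the 9 autosomal genes (-0.25). The medians of the mitosis list (-1.04) and the differentiation list (0.89) lie below and above those of all envelope lists. The nearest to the latter is that of the muscle envelope list (0.74), and single genes of the envelope lists lie within the ranges of both.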

How the data were processed

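Per the labels and the methods, the authors trimmed the PRO-seq reads (Trimmomatic 0.39), aligned them to GRCm38 with STAR 2.6.1d, with a single random position retained for reads that matched several, removed duplicates (Picard 2.18.16) and counted reads on the correct strand. The deposited TSS values behave as RPM (the methods state TPM), and the deposited gene body values are TPM. Isoforms with a mean under 0.5 in either region were to be removed and X and Y excluded. As 1343 listed genes had a TSS mean under 0.5, both filters were applied again, and X and Y were included only to test *Emd*. The test was that of limma 3.58.1 in R 4.3.3 (lmFit, eBayes with a trend) on log2(value + 0.5). For the pausing index the log2 ratio was tested with no pseudocount, over genes with no value of 0. The fold change on this scale understates the change of low genes. Reads were recovered as multiples of the value of 1 read. Of the values under 200 reads, 100% came out whole in TSS regions (within 0.0051 RPM plus 0.01% of the value) and in gene bodies under 2000 nt (within 0.0051 TPM plus 0.02%). Longer bodies, those of all 10 genes among them, could not be checked in this way and their reads are rounded estimates. There 0.005 TPM, the rounding of the deposited values, stands for at most 0.357 reads, or 2.14 in *Syne2*. These reads were tested with edgeR 4.0.16 and DESeq2 1.42.0 as alternatives. All gene lists are described by counts and medians, without a set test. All 10 genes are named, and from each further list the genes called in either region (of over 4, the largest rises and falls) or, with none called, those with the smallest p in the gene body. The members and lists were chosen with earlier results of these data known. Scripts were tested on simulated data. Python 3.11.15, pandas 2.3.3, numpy 2.4.6 and matplotlib 3.10.9 were also used.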

Additional observations from a re-analysis of the deposited data

How the results depend on the processing

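Of the 9 autosomal genes 1 was called in each region (*Lmnb1*). In the gene body this count was 0 with the replicate block and at an adjusted p under 0.05, 3 with edgeR and with DESeq2, and between 0 and 3 with 1 library left out. In the TSS region it was 0 without the filter on low values, without the trend, with the replicate block and at an adjusted p under 0.05, and between 0 and 1 with 1 library left out. For the 60 further envelope genes, the 1 gene called in the gene body became 2 after centring on the median, 3 after quantile normalization, 7 with edgeR, 9 with DESeq2, 0 with the replicate block and at an adjusted p under 0.05, and 0 to 7 with 1 library left out. The 1 called in the TSS region became 0 without the filter, without the trend, with the replicate block and at an adjusted p under 0.05, and 0 to 1 with 1 library left out. Without the filter or without the trend, limma called 0 of all genes in the TSS region. At an adjusted p under 0.05 it called 1 higher and 0 lower of all 12451 genes in the gene body. In the TSS region it called 38 higher and 26 lower at that threshold. The pausing index gave 0 under every alternative run.

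The replicate numbers do not pair the libraries: deviations from the group mean correlated at -0.15, -0.17 and -0.33 for same-numbered libraries in the gene body and at -0.03, -0.13 and -0.16 in the TSS region. With the replicate block 0 of all genes were called in either region, and *Lmnb1* had an adjusted p of 0.246 in the gene body and 0.201 in the TSS region.

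Over all genes, 200 rose and 172 fell in the gene body with limma. With edgeR 395 rose and 353 fell, and with DESeq2 713 rose and 582 fell. Without Ctrl replicate 1 or any 1 *Kmt5b* sKO library 0 genes were called there, without Ctrl replicate 2 limma called 195 higher and 66 lower, and without Ctrl replicate 3 it called 330 and 506. Quantile normalization turned the balance, with 221 higher and 278 lower.

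Fold changes that did not pass the threshold changed sign in few cases. *Lmna* in the gene body was -0.067 after quantile normalization. *Syne1* in the TSS region was -0.035 after centring, -0.052 after quantile normalization, -0.031 with edgeR and -0.039 with DESeq2. With 1 library left out, the log2 fold change ran from -0.0084 to 0.11 for *Lmna*, -0.55 to 0.045 for *Emd* in the gene body, and in the TSS region from -0.18 to 0.15 for *Emd*, -0.48 to 0.0086 for *Lbr*, -0.25 to 0.24 for *Sun2* and -0.053 to 0.15 for *Syne1*. For the pausing index it ran from -0.27 to 0.21 for *Lmnb1*, -0.12 to 0.53 for *Emd*, -0.061 to 0.38 for *Sun1*, -0.15 to 0.58 for *Sun2* and -0.50 to 0.048 for *Syne2*. The log2 ratio of *Lmna* to *Lmnb1* was higher in *Kmt5b* sKO than in Ctrl by 0.88 in the gene body. This difference lay between 0.78 and 1.04 with 1 library left out, and it was 0.68 in the TSS region. The causes were not tested. Depth limits *Syne2* in the TSS region most, where 12 to 99 reads lay behind a value.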
